A study of Homo sapiens with 12 samples.

Results

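The genes described here encode 9 receptors of the transforming growth factor beta (TGF-beta) superfamily, measured as mRNA in a human heart cell line and in the vesicles it released. They are BMPR2, ACVR2A and TGFBR2 (type II receptors), BMPR1A, ACVR1, ACVR1B and TGFBR1 (type I receptors), and TGFBR3 and ENG (coreceptors). They were chosen by gene name, as 9 receptors of bone morphogenetic proteins (BMPs), activins and TGF-beta. Earlier results of these data were known at that choice. They come from 15414 genes listed in cells or exosomes. ACVR2B, also listed in both compartments, and BMPR1B, ACVR1C and ACVRL1, listed in cells alone, are not among the 9. All 9 were listed in both compartments. BMPR2 had 0 reads in every library of exosomes labelled Ang, against 20, 62 and 105 reads in exosomes labelled Con. In the edgeR fits within each compartment, no receptor differed between Ang and Con past the threshold, while DESeq2 and an edgeR fit to all 12 libraries called BMPR2 in exosomes. In each label 5 of the 9 passed as lower in exosomes than in cells. Of all genes tested, 9.26% passed as lower in Con and 10.7% in Ang. The 5 were not the same, since ACVR1 passed in Con alone and BMPR2 in Ang alone. Each of these calls but that of BMPR2 in Ang was lost in some fits that left out a library. ENG was the member with the highest level per length in exosomes of either label.

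RNA was sequenced from AC16, an established human line obtained by fusion of ventricular cardiomyocytes with an immortalised fibroblast line, and from the exosomes, small secreted membrane vesicles, that it released. The 12 libraries form 4 groups of 3, which are Ang exosomes, Con exosomes, Ang cells and Con cells. All come from the same line with no further genotype or treatment in the labels, and the labels do not spell out Ang or Con. The stated purpose of the series is the search for exosomal microRNAs of hypertrophic cardiomyocytes and the proteins that bind them. Nothing states that the 3 libraries of a group were separate cultures, so p-values measure the spread between libraries, which may be technical.

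Ligands of this superfamily are dimers that bring type II and type I receptors together on the cell surface. The type II receptor is a constitutively active serine/threonine kinase that phosphorylates the type I receptor, which then phosphorylates receptor SMAD proteins. BMP receptors act mainly through SMAD1, SMAD5 and SMAD9, and TGF-beta and activin receptors through SMAD2 and SMAD3, in each case with SMAD4. In the heart the TGF-beta branch is known for fibroblast activation and matrix production, and the BMP branch for heart development and for the lung vasculature, where BMPR2 is the main gene of heritable pulmonary arterial hypertension.

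Reads assigned to genes numbered 535442 to 587783 per Ang exosome library, 717263 to 745311 per Con exosome library and 9202471 to 11212674 per cell library. RNA of the cells and of the exosomes was extracted and made into libraries with different kits, so compartment and kit cannot be told apart in any exosome against cell value below. In bulk RNA, fewer cells or vesicles that hold a transcript and less of it in each cannot be told apart either. Of 12 cardiomyocyte markers, 7 were listed in cells, with a summed level of 31 to 35.8 CPM (the depth-scaled count used throughout) in Ang cells and 27.3 to 32.5 CPM in Con cells. TNNC1, MYH6, MYL2, MYL7 and TBX5 were not listed. The 9 fibroblast markers were all listed in cells and summed to 5860 to 6980 CPM in Ang cells and 6720 to 7240 CPM in Con cells. Defining cardiomyocyte transcripts were thus few or absent in this line of cardiomyocyte origin. The endothelial list, which matters for BMPR2 and ENG as receptors of vessel cells, summed to 0 to 2 CPM in Ang exosomes and 7.2 to 14.7 CPM in Con exosomes, with 3 of its 8 genes listed there and CDH5 and ERG not listed. It summed to 15 to 20.1 CPM in Ang cells and 17.9 to 19.1 CPM in Con cells.

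BMPR2 (ENSG00000204217), the type II receptor of most BMPs, lies at chr2:202376936-202567751 on the plus strand of GRCh38. Its principal transcript has 13 exons and 11461 bases and encodes 1038 residues, with a long cytoplasmic tail beyond the kinase. The 3 Ang exosome libraries held 0, 0 and 0 reads of it, the Con exosome libraries 20, 62 and 105, the Ang cell libraries 1919, 2014 and 2149, and the Con cell libraries 1944, 2152 and 2334. All Ang exosome libraries were thus below all Con exosome libraries, while Ang and Con cells overlapped. The mean level of BMPR2 was 0 CPM in Ang exosomes, 92.5 ± 64.5 CPM in Con exosomes, 190 ± 5.4 CPM in Ang cells and 198 ± 7.31 CPM in Con cells (SD over 3 libraries). A floor of 3 reads over the Ang exosome group, or 1.92 CPM, was set against pooled levels. The level in Ang exosomes was at least 47.6-fold lower than in Con exosomes (91.6 CPM) and at least 98.6-fold lower than in Ang cells. The floor covers counting error only, and the bounds leave out the spread of the Con exosome libraries (28.8 to 158 CPM). At the pooled level of the Con exosomes, 143 reads would have fallen in the Ang exosome libraries.

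The Con exosome libraries themselves were uneven for BMPR2. The highest was 5.49 times the lowest on the CPM scale, and the coefficient of variation was 69.7%, against 12.7% from counting alone. Of 3644 genes whose Con exosome reads summed to within a factor of 2 of the 187 BMPR2 reads, 214 (5.87%) were at least as uneven. Of the same 3644 genes, 39 (1.07%) had at least 1 Ang exosome library at 0 reads, and BMPR2 was the one gene at 0 in all 3. Over all listed exosome genes with at least 10 reads in every Con library, 2 of 6790 were at 0 in every Ang library, BMPR2 and the mitochondrial ribosomal protein gene MRPS17. No gene of 5836 showed the opposite pattern in exosomes, and none of 12867 or 12830 showed either pattern in cells. MRPS17 had 0, 0 and 0 reads in Ang exosomes, against 24, 19 and 16 in Con exosomes. Since the receptors were chosen with earlier results of these data known, these shares describe BMPR2 and are not a test of it. Ang exosome libraries were also shallower and had the lower endothelial marker sum given above, and the part of either in the BMPR2 value was not tested.

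In the edgeR quasi-likelihood fit over 8327 exosome genes, BMPR2 did not pass the threshold for Ang against Con (unadjusted p = 0.000326, Benjamini-Hochberg adjusted p = 0.279), in a comparison where 0.012% of all genes tested were called. The fitted fold change against a group at 0 depends on the prior count and is not given. The call turned with the tool and with the libraries fitted, since DESeq2 gave an adjusted p of 1.36e-05 and edgeR fitted to all 12 libraries gave 0.00888. The fit to all 12 libraries estimated 1 spread per gene for both compartments, although exosomes were more variable than cells. The common biological coefficient of variation of the edgeR fits was 0.423 in exosomes, 0.227 in cells and 0.319 over all 12 libraries. Leaving out 1 exosome library at a time, the edgeR adjusted p ran from 0.0966 without Con replicate 1 to 0.866 without Con replicate 2. In cells the log2 fold change was -0.07 (SE 0.0532, 95% interval -0.20 to 0.07, adjusted p = 0.85). The difference between the Ang against Con change in exosomes and that in cells had an adjusted p of 0.0526 for BMPR2 over 11811 genes, of which 0.0254% were called (0.00847% higher and 0.0169% lower). That adjusted p was 0.0498 with upper quartile scaling and 7.98e-06 with DESeq2. Leaving out 1 library at a time, it was 0.00145 without Con exosome replicate 1 and 0.0645 to 0.175 in the other 11 fits.

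A second readout at the same locus came from circular RNAs, which form when the end of an exon is spliced back to the start of the same or an earlier exon. Of 5179 circular RNAs listed in cells, 4 lay within the 9 receptor genes, and of 939 listed in exosomes, 1 did. The BMPR2 circle was exon 12 alone (1280 bases, within the coding sequence, chr2:202555252-202556531). Its back-splice junction had 3, 0 and 4 reads in Ang cells, against 2, 0 and 0 reads in Con cells, and it was not listed in exosomes. The ACVR2A circle joined exons 2 to 4 (473 bases, within the coding sequence, chr2:147896301-147899898). It had 0, 0 and 0 junction reads in Ang exosomes, against 0, 0 and 7 in Con exosomes, and 4, 0 and 3 in Ang cells, against 3, 4 and 7 in Con cells. The junction sequences of both are shown because they are what a read must span to be counted as the circle rather than the mRNA. The 30 bases in lower case end the last exon of the circle and the 30 in capitals begin its first exon, from GENCODE release 29 transcripts on GRCh38, plus strand.
BMPR2: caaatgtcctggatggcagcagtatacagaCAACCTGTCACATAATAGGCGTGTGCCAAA
ACVR2A: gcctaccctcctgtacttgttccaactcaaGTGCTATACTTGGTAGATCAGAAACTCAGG
The summed junction reads were few, and the intervals that follow cover counting error only, not the spread between libraries. The BMPR2 circle had 7 in Ang cells (exact 95% Poisson interval 2.81 to 14.4) and 2 in Con cells (0.242 to 7.22), and the ACVR2A circle 7 in Ang cells (2.81 to 14.4) and 14 in Con cells (7.65 to 23.5), so the intervals of Ang and Con overlapped for each. The remaining circles were 1 in ACVR1, with 3 reads in a single Con cell library, and 1 in ENG, with 3 reads in a single Ang cell library. Neither of these had ends at annotated exon ends.

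**Figure D1:**
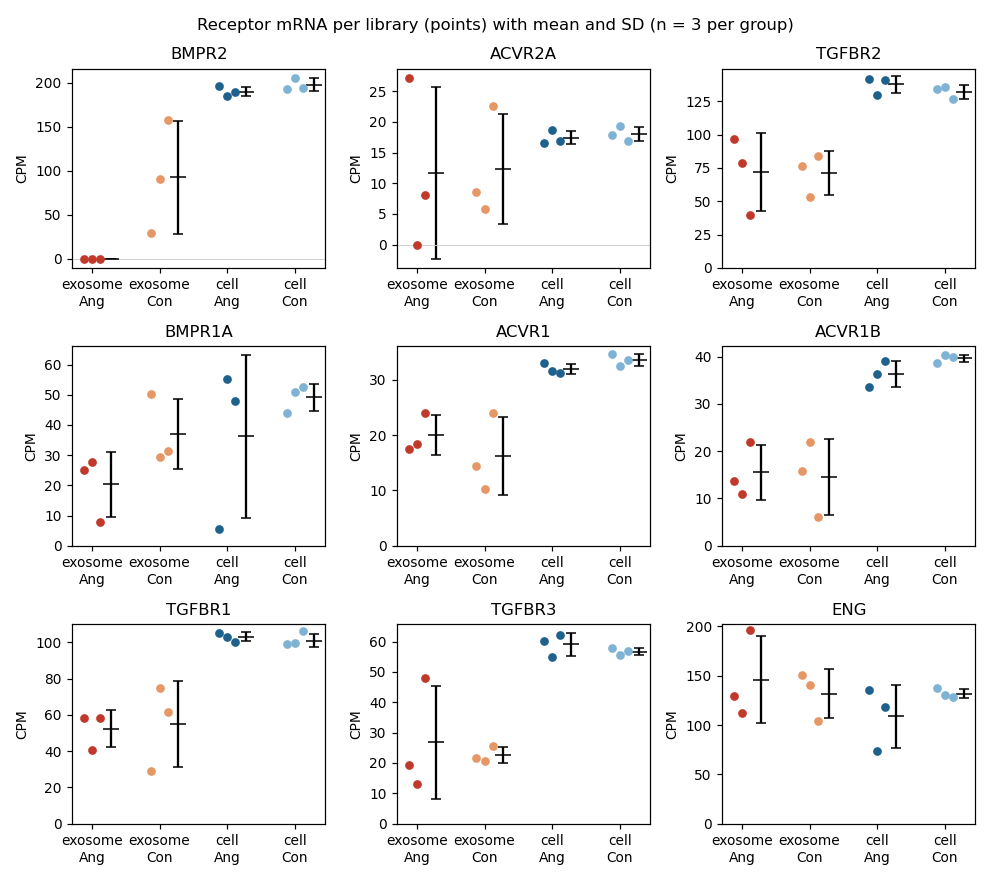
CPM of each receptor in each library (points, y axis on a linear scale that differs between panels), with the mean and SD of the 3 libraries of a group to the right of the points, for Ang exosomes, Con exosomes, Ang cells and Con cells. BMPR2 is at 0 in the 3 Ang exosome libraries and spread from 28.8 to 158 CPM in Con exosomes, and 1 Ang cell library has a BMPR1A level of 5.4 CPM.

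The other type II receptors were detected in exosomes of both labels. TGFBR2 (ENSG00000163513, chr3:30606502-30694142, plus strand), the receptor that binds TGF-beta itself, had 50, 43 and 20 reads in Ang exosomes, 53, 36 and 56 in Con exosomes, 1391, 1421 and 1599 in Ang cells, and 1347, 1422 and 1519 in Con cells. Ang and Con overlapped in both compartments, and every exosome library lay below every cell library in CPM. The log2 fold change of Ang over Con was 0.03 in exosomes (SE 0.41, 95% interval -0.89 to 0.94) and 0.05 in cells (SE 0.0626, 95% interval -0.10 to 0.21). ACVR2A (ENSG00000121989, chr2:147844517-147930826, plus strand), an activin receptor also used by BMPs, had 14, 0 and 4 reads in Ang exosomes, 6, 4 and 15 in Con exosomes, 163, 203 and 192 in Ang cells, and 179, 201 and 203 in Con cells. It did not pass the filter on low counts for the exosome comparison, and its exosome groups overlapped. Of its annotated exon bases, 8.0% are shared with a gene on the opposite strand, and the use of strand in counting is not given in the sources used here.

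Among the type I receptors, TGFBR1 (ENSG00000106799, chr9:99104038-99154192, plus strand), the partner of TGFBR2, had 30, 22 and 29 reads in Ang exosomes, 20, 51 and 41 in Con exosomes, 1033, 1122 and 1135 in Ang cells, and 999, 1037 and 1272 in Con cells. Its exosome libraries were all below its cell libraries in CPM, with Ang and Con overlapping in each compartment. ACVR1 (ENSG00000115170, chr2:157736444-157875862, minus strand), a type I receptor for BMPs, had 9, 10 and 12 reads in Ang exosomes, 10, 7 and 16 in Con exosomes, 324, 345 and 354 in Ang cells, and 350, 339 and 403 in Con cells. ACVR1B (ENSG00000135503, chr12:51951667-51997078, plus strand), the main type I receptor for activins, had 7, 6 and 11 reads in Ang exosomes, 11, 15 and 4 in Con exosomes, 329, 397 and 443 in Ang cells, and 390, 420 and 479 in Con cells. ACVR1 and ACVR1B were thus measured from at most 16 reads in any exosome library, and ACVR1B did not pass the count filter for the exosome comparison of Ang with Con.

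BMPR1A (ENSG00000107779, chr10:86756601-86932838, plus strand), the type I receptor of BMP2 and BMP4, had 13, 15 and 4 reads in Ang exosomes, 35, 20 and 21 in Con exosomes, 53, 603 and 541 in Ang cells, and 444, 530 and 630 in Con cells. Its Ang exosome libraries were all below its Con exosome libraries in CPM (20.3 ± 10.7 in Ang exosomes and 37.1 ± 11.6 in Con exosomes, SD over 3 libraries), with a log2 fold change of -0.86 (SE 0.585, 95% interval -2.16 to 0.45, adjusted p = 0.999). BMPR1A and BMPR2 were thus 2 of the 7 receptors tested in exosomes with every Ang library below every Con library, against 5.6% of all genes tested, and 0 of 7 had every Ang library above, against 5.18%. In cells, Ang replicate 1 held 53 reads, or 5.4 CPM, where the other 5 libraries held 44.1 to 55.3 CPM and overlapped between Ang and Con. Such a fall in 1 library, to over 4-fold below the median of the 6, was found in 2.63% of cell genes (304 of 11570 whose median was 40 reads or more) and, among the 9 receptors, in BMPR1A alone. The log2 fold change of Ang over Con in cells was -0.45 (SE 0.75) with that library and 0.06 without it.

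The coreceptors present ligand to the kinase receptors and have no kinase of their own. TGFBR3 (betaglycan, ENSG00000069702, chr1:91680343-91906335, minus strand), which presents TGF-beta2 and binds inhibins, had 10, 7 and 24 reads in Ang exosomes, 15, 14 and 17 in Con exosomes, 592, 598 and 704 in Ang cells, and 583, 579 and 682 in Con cells. The Ang exosome libraries spanned the Con exosome libraries. ENG (endoglin, ENSG00000106991, chr9:127815012-127854756, minus strand), a coreceptor best known from endothelial cells and from hereditary haemorrhagic telangiectasia, had 67, 61 and 98 reads in Ang exosomes, 105, 96 and 69 in Con exosomes, 1336, 808 and 1338 in Ang cells, and 1386, 1368 and 1539 in Con cells. In CPM it stood at 146 ± 44.3 in Ang exosomes, 132 ± 25 in Con exosomes, 109 ± 31.9 in Ang cells and 132 ± 4.8 in Con cells (SD, n = 3 each), and the 4 groups overlapped apart from Ang cell replicate 2, which was lowest. Its log2 fold change in cells was -0.28 (SE 0.223) for Ang over Con, and -0.07 without Ang replicate 2. ENG also shares 8.0% of its exon bases with a gene on the opposite strand.

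Between Ang and Con, 0 of the 7 receptors tested in exosomes and 0 of the 9 in cells passed the edgeR threshold, where 0.012% of exosome genes and 0% of 13331 cell genes did. At an unadjusted p under 0.05, 1 of the 7 receptors in exosomes (BMPR2) and 0 of the 9 in cells were found, against 316 and 816 of all genes tested. DESeq2 called 16 exosome genes, with BMPR2 among them, and 60 cell genes. In cells, the 95% intervals of BMPR2, TGFBR1, TGFBR2 and TGFBR3 lay within -0.20 and 0.23 on the log2 scale. Those of the other receptors reached further. They ran from -0.25 to 0.09 for ACVR1, -0.33 to 0.07 for ACVR1B and -0.30 to 0.19 for ACVR2A. For ENG the interval was -0.84 to 0.27 and for BMPR1A -2.315 to 1.42. In exosomes the intervals of the 6 receptors other than BMPR2 reached from -2.16 to 1.77. Differences within them were not detectable there at this depth and spread between libraries. No receptor in cells had every Ang library below or every Ang library above the Con libraries, against 6.89% and 7.01% of genes tested. The median log2 fold change of the receptors was 0.03 in exosomes and -0.07 in cells, against 0 in each over all genes tested to 2 decimals. For the difference in change between compartments, the adjusted p of the 8 receptors other than BMPR2 was 0.869 to 0.998.

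**Figure D2:**
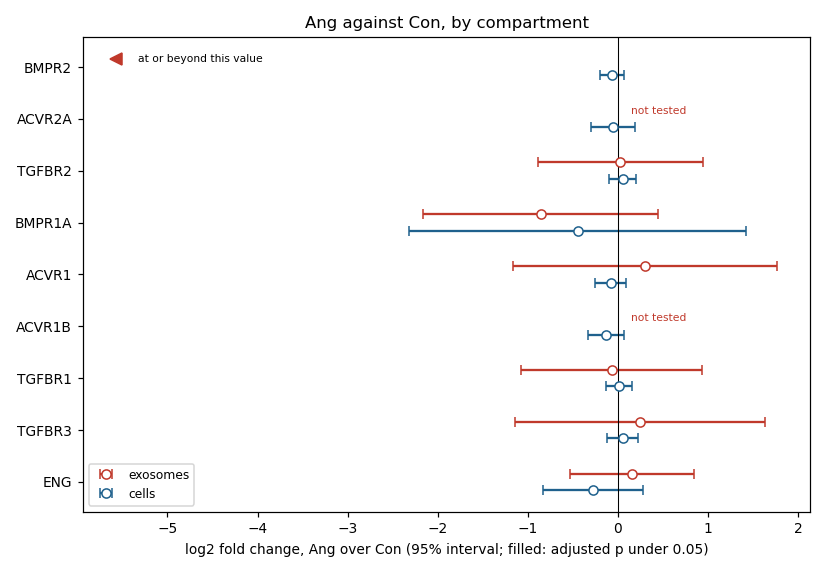
Fitted log2 fold change of Ang over Con for each receptor in exosomes and in cells, with 95% intervals (x axis, log2 scale, where values below 0 are lower in Ang). All circles are open since no receptor passed in these edgeR fits within a compartment. The arrow of BMPR2 in exosomes is solid but is not a call. It marks the bound of -5.57 that 0 reads allow against the pooled Con exosome level. The cell intervals of BMPR2, TGFBR1, TGFBR2 and TGFBR3 lie within -0.20 and 0.23. Cell intervals of the other receptors reach outside this range.

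In the comparison of exosomes with cells, receptors that passed the threshold were lower in exosomes. With Con libraries, 5 of the 9 receptors (ACVR1, ACVR1B, TGFBR1, TGFBR2 and TGFBR3) passed the threshold as lower in exosomes and 0 as higher, where 9.26% of the 11811 genes tested were called lower and 20.4% in either direction. With Ang libraries, 5 of the 9 (BMPR2, ACVR1B, TGFBR1, TGFBR2 and TGFBR3) passed as lower and 0 as higher, where 10.7% of genes tested were called lower and 21.8% in either direction. In each label, 6 of the 9 receptors, BMPR2, ACVR1, ACVR1B, TGFBR1, TGFBR2 and TGFBR3, had every exosome library below every cell library, against 26.4% of genes in Ang and 26.1% in Con. None had every exosome library above, against 17.5% of genes in Ang and 19.3% in Con. The median log2 fold change of exosomes over cells was -0.93 over the 9 receptors in Ang, against -0.11 over all genes, and -0.90 over the 9 in Con, against -0.08 over all genes. With BMPR2 placed at its bound of -6.62 in Ang, the median of the 9 is the same.

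The largest called differences other than that of BMPR2 in Ang were those of ACVR1B and TGFBR3. Over the Ang libraries ACVR1B averaged 15.5 ± 5.76 CPM for exosomes and 36.3 ± 2.79 CPM for cells (SD, n = 3 each). In Con it averaged 14.6 ± 8.07 CPM over the exosome libraries and 39.6 ± 0.81 CPM over the cell libraries. It was 2.35-fold lower in exosomes in Ang (adjusted p = 0.0439) and 2.7-fold lower in Con (adjusted p = 0.0199). TGFBR3 was 2.22-fold lower in Ang exosomes (adjusted p = 0.0405) and 2.51-fold lower in Con exosomes (adjusted p = 0.0209). TGFBR1 and TGFBR2 were 1.97-fold and 1.91-fold lower in Ang exosomes (adjusted p = 0.0338 and 0.0323) and 1.84-fold and 1.86-fold lower in Con exosomes (adjusted p = 0.049 and 0.0378). ACVR1 was 2.07-fold lower in Con exosomes (adjusted p = 0.0382), while in Ang its log2 fold change was -0.68 (SE 0.33, adjusted p = 0.161). The difference between the labels was itself tested for ACVR1 and was 0.37 on the log2 scale (SE 0.467). BMPR2 in Con exosomes had a log2 fold change of -1.10 against Con cells (SE 0.428, 95% interval -2.05 to -0.15, adjusted p = 0.0969). Without Con exosome replicate 3, the library with 105 reads, it was -1.73 (adjusted p = 0.0182), and without replicate 1, the library with 20 reads, it was -0.67 (adjusted p = 0.0933). In the other 4 fits that left out a Con library the adjusted p was 0.179 to 0.198.

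ENG, BMPR1A and ACVR2A did not pass in either label. ENG had a log2 fold change of exosomes over cells of 0.41 in Ang (SE 0.271, 95% interval -0.17 to 1.002) and of 0 to 2 decimals in Con (SE 0.269, 95% interval -0.59 to 0.58), at percentiles 69.2 and 52.9 of all genes tested. The 5 receptors called in Con lay at percentiles 8.5 to 19.3. Those called in Ang lay at percentiles 14 to 20.8 apart from BMPR2, which had the lowest fitted value of all genes. Across 11799 genes, the exosome over cell fold change was lower for genes with more annotated exon bases (Spearman's rho -0.198 in Ang and -0.226 in Con, across genes, which are not independent). Genes of 6000 to 10000 exon bases, where TGFBR1, TGFBR3 and ACVR2A fall, had a median of -0.28 in Ang and -0.27 in Con. Genes of 2000 to 4000 bases, where ENG and ACVR1 fall, had a median of 0.14 in Ang and 0.18 in Con. Genes of up to 2000 bases, where no receptor falls, had a median of 0.48 in Ang and 0.51 in Con. The part of transcript length was not tested, either in the receptors' values or in those of the pathway lists below.

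Most of these calls stood near the threshold, and each but that of BMPR2 in Ang was lost in some of the fits that left out 1 library. In Con, ACVR1 was lost without any 1 cell library or without exosome replicate 1 or 2 (adjusted p 0.079 to 0.0981) and ACVR1B without any 1 cell library (0.0512 to 0.0555). TGFBR1 was lost without any 1 Con cell library or without exosome replicate 1 or 3 (0.0638 to 0.124), and TGFBR2 and TGFBR3 without any 1 Con cell library or without exosome replicate 1 or 2 (0.063 to 0.11 for TGFBR2 and 0.0526 to 0.0595 for TGFBR3). In Ang, TGFBR1 was lost without any 1 cell library or without exosome replicate 2 (0.0783 to 0.0918). TGFBR2 was lost without any 1 Ang cell library or without exosome replicate 2 or 3 (0.0511 to 0.0888), and ACVR1B and TGFBR3 without any 1 Ang cell library or without exosome replicate 1 or 2 (0.0838 to 0.113 for ACVR1B and 0.0803 to 0.108 for TGFBR3). Without a Con cell library 10238 to 10249 genes were tested and without an Ang cell library 10247 to 10250, against 11811 in the main fit. Leaving out any cell library thus also changed the set of genes tested, and the part of that in the lost calls was not tested. For each of these receptors the fold change stayed negative in all of the fits that left out 1 library. BMPR2 in Ang stayed called in every one (adjusted p 0.000364 to 0.000629).

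**Figure D3:**
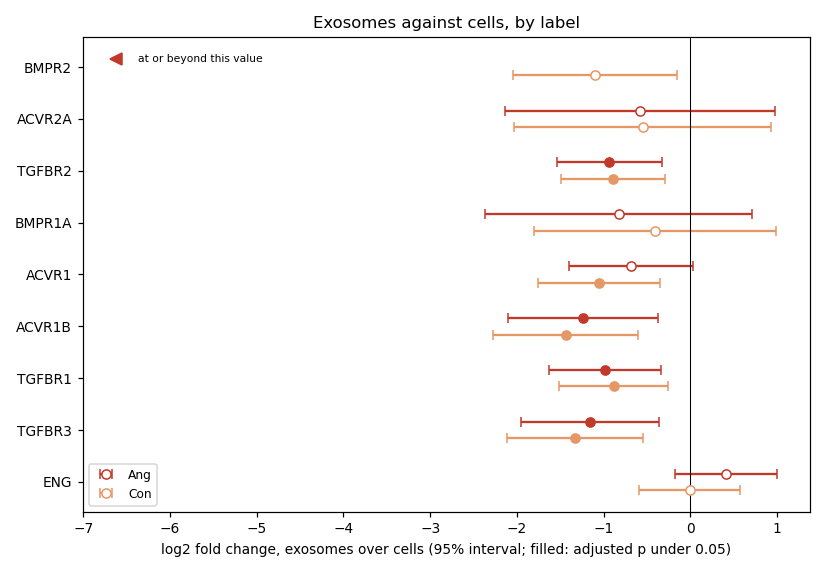
Fitted log2 fold change of exosomes over cells for each receptor in Ang and in Con, with 95% intervals (x axis, log2 scale, filled symbols for an adjusted p under 0.05). Filled circles lie between -0.88 and -1.43. The solid arrow of BMPR2 in Ang marks the bound of -6.62 that 0 reads allow, and ENG lies at or above 0 to 2 decimals.

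Levels between receptors were compared as CPM per kilobase of annotated exon. Annotated exon bases exceeded those of the principal transcript, as for TGFBR3 (8705 against 6465) and ACVR1B (5690 against 4563). The order of close neighbours can thus depend on the length used. In Ang exosomes the order was ENG (37.1), TGFBR2 (15.3), TGFBR1 (7.63), ACVR1 (5), TGFBR3 (3.08), ACVR1B (2.73), BMPR1A (1.78) and ACVR2A (1.73), with BMPR2 at 0. In Con exosomes it was ENG (33.5), TGFBR2 (15.1), TGFBR1 (8.05), BMPR2 (7.77), ACVR1 (4.07), BMPR1A (3.25), TGFBR3 (2.59), ACVR1B (2.57) and ACVR2A (1.82). In both exosome groups the libraries of ENG and TGFBR2 did not overlap, nor did those of TGFBR2 and TGFBR1, while all later neighbours with reads overlapped. In Ang cells TGFBR2 (29.3) and ENG (27.8) led and overlapped, followed by BMPR2 (16), TGFBR1 (15), ACVR1 (8.01), TGFBR3 (6.79), ACVR1B (6.39), BMPR1A (3.17) and ACVR2A (2.57). There TGFBR3 overlapped ACVR1B, and BMPR1A overlapped ACVR2A. In Con cells ENG (33.6), TGFBR2 (28.1), BMPR2 (16.6), TGFBR1 (14.8), ACVR1 (8.42), ACVR1B (6.96), TGFBR3 (6.52), BMPR1A (4.3) and ACVR2A (2.66) followed each other with no overlap between neighbours.

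Summed per length, the 9 receptors reached 74.4 ± 11.6 CPM per kilobase in Ang exosomes, 78.7 ± 3.46 in Con exosomes, 115 ± 8.4 in Ang cells and 122 ± 1.49 in Con cells (SD, n = 3 each). The coreceptors made up 53.3% ± 10.9 of that sum in Ang exosomes, 46.1% ± 9.57 in Con exosomes, 29.8% ± 5.42 in Ang cells and 32.9% ± 0.887 in Con cells. Every exosome library thus had a higher coreceptor share than every cell library. Type II receptors made up 23.5% ± 10.7 in Ang exosomes, 31.1% ± 9.2 in Con exosomes, 41.7% ± 1.73 in Ang cells and 38.8% ± 1.01 in Con cells, and the share of 1 Con exosome library (41.7%) fell within the range of the cells. BMPR2 alone was 0% of the sum in Ang exosomes, 9.69% ± 6.43 in Con exosomes, 13.9% ± 0.722 in Ang cells and 13.6% ± 0.44 in Con cells. Type I receptors made up 23.1% ± 0.863 in Ang exosomes, 22.7% ± 2.91 in Con exosomes, 28.5% ± 3.8 in Ang cells and 28.3% ± 1.05 in Con cells. These shares sum genes with very different read numbers, and ENG carries most of the coreceptor share, so no test was made of them.

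**Figure D4:**
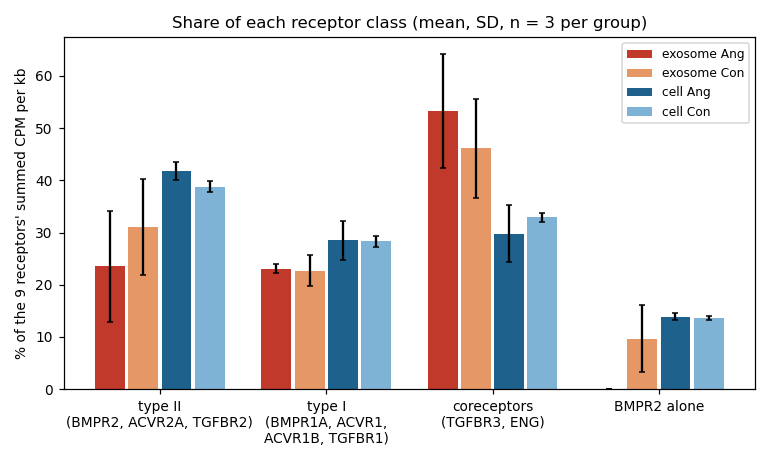
Share of the summed CPM per kilobase of the 9 receptors held by type II receptors, type I receptors, coreceptors and BMPR2 alone (y axis, percent; bars, mean of 3 libraries; lines, SD) in Ang exosomes, Con exosomes, Ang cells and Con cells. The coreceptor bars are 53.3% and 46.1% in exosomes against 29.8% and 32.9% in cells, and BMPR2 has no bar in Ang exosomes.

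Precision differed between compartments. The coefficient of variation between the 3 libraries of a group had a median over receptors of 38.8% in Ang exosomes, 43% in Con exosomes, 6.21% in Ang cells and 3.69% in Con cells. Counting alone would give 11.5% to 40.8% in Ang exosomes, 10.5% to 34.6% in Con exosomes, 2.22% to 7.33% in Ang cells and 2.16% to 7.17% in Con cells. These ranges span receptors of different depth. Receptor by receptor, the observed value in exosomes was above counting wherever there were reads, with 1 exception in each label. The exceptions were ACVR1 in Ang (17.8% against 31.1%) and TGFBR3 in Con (11.6% against 25.5%). BMPR1A in Ang cells (74.3%) and ACVR2A in Ang exosomes (120%) were the most variable receptors of the cells and of the exosomes.

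The rest of the pathway was read from lists of its other genes. Of the 5 other receptors of the family, ACVR2B was listed in both compartments, BMPR1B, ACVR1C and ACVRL1 in cells, and AMHR2 in neither. BMPR1B, ACVR1C and ACVRL1 had at most 23 reads in any cell library. ACVR2B, a type II activin receptor, had 3, 3 and 13 reads in Ang exosomes against 220, 288 and 286 in Ang cells (log2 fold change -1.004, SE 0.543, adjusted p = 0.211). It had 2, 2 and 0 reads in Con exosomes against 285, 283 and 300 in Con cells, where it was 13.6-fold lower in exosomes (adjusted p = 0.00285).

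Between Ang and Con, no gene of the other receptor, ligand, trap, coreceptor, SMAD, regulator, BMP-responsive or TGF-beta-responsive lists passed the threshold in exosomes or in cells, nor did any for the difference in change between compartments. Of 21 TGF-beta-responsive genes tested in cells, 6 had an unadjusted p under 0.05, against 816 of 13331 over all genes, and the smallest adjusted p of the list there was 0.781. Among the BMP-responsive genes, ID1, an inhibitor of basic helix-loop-helix factors and a direct SMAD target, had a log2 fold change of Ang over Con of 0.29 in exosomes (SE 0.564). ID3, its relative, had 34, 14 and 19 reads in Ang exosomes and 3, 13 and 15 in Con exosomes (log2 fold change 1.49, SE 0.669, adjusted p = 0.999). ID2 had a log2 fold change of 0.29 in cells (SE 0.108, adjusted p = 0.795). SMAD3 had 0.06 in exosomes (SE 0.177) and 0.04 in cells (SE 0.0621). GREM1, a secreted BMP antagonist, had 0.31 in exosomes (SE 0.247) and 0.12 in cells (SE 0.0321, adjusted p = 0.795).

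Between exosomes and cells these lists held genes on both sides. Of 8 ligand genes tested, 3 were higher and 0 lower in Ang exosomes, and 4 were higher and 1 lower in Con exosomes, against 11% of all genes called higher in Ang and 11.2% in Con. GDF11, a ligand of the activin branch, had 150, 142 and 144 reads in Ang exosomes against 341, 364 and 402 in Ang cells, and 75, 168 and 107 in Con exosomes against 380, 430 and 428 in Con cells, in libraries of very different depth. On the CPM scale it was 8.1-fold higher in Ang exosomes (adjusted p = 8.33e-06) and 4.49-fold higher in Con exosomes (adjusted p = 0.000117). AMH and GDF15 were also called higher in exosomes of both labels, from at most 31 exosome reads in a library. TGFB1 was called higher in Con exosomes (2.64-fold, adjusted p = 0.0314).

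The counts of the lists that follow are to be read against 11% of all genes called higher and 10.7% called lower in Ang exosomes, and 11.2% and 9.26% in Con exosomes. Of the 8 SMADs, 1 was higher and 1 lower in exosomes of each label, the same genes each time. SMAD3, a mediator of TGF-beta and activin signals, was 1.67-fold higher in Ang exosomes (adjusted p = 0.00283) and 1.66-fold higher in Con exosomes (adjusted p = 0.00321). SMAD5, a mediator of BMP signals, was 2.01-fold lower in Ang exosomes (adjusted p = 0.0119) and 2.2-fold lower in Con exosomes (adjusted p = 0.0063). FKBP1A, which encodes a protein that holds type I receptors inactive, was 3.72-fold higher in Ang exosomes and 4.4-fold higher in Con exosomes (adjusted p = 0.00425 and 0.00219). Of 18 regulators tested, 1 was higher and 1 lower in Ang, and 2 were higher and 2 lower in Con. Of 15 traps and latency proteins, 0 were higher and 2 lower in Ang, and 2 were higher and 1 lower in Con, with FSTL1 lower in each. Of 5 coreceptors and decoys other than TGFBR3 and ENG, CD109, a TGF-beta coreceptor that limits signalling, was called in Ang alone (4.13-fold lower, adjusted p = 0.0265; adjusted p = 0.0532 in Con), and the difference in change had an adjusted p of 0.964.

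Of 9 BMP-responsive genes, 3 were higher and 0 lower in Ang exosomes, against 11% and 10.7% of all genes, and 4 were higher and 0 lower in Con exosomes, against 11.2% and 9.26%. ID1 had 17, 47 and 39 reads in Ang exosomes and 66, 29 and 16 in Con exosomes, against 49, 69 and 61 in Ang cells and 49, 52 and 67 in Con cells. On the CPM scale this was 11.8-fold higher in Ang exosomes (adjusted p = 0.000339) and 10.4-fold higher in Con exosomes (adjusted p = 0.00048). ID3 was 9.94-fold and ID2 2.66-fold higher in Ang exosomes (adjusted p = 0.00184 and 0.0248). In Con exosomes ID3 was 4.51-fold and ID2 2.78-fold higher (adjusted p = 0.0259 and 0.0201). Of 20 TGF-beta-responsive genes, set against the same shares of all genes, 3 were higher and 3 lower in Ang, and 3 were higher and 5 lower in Con. JUNB, an AP-1 subunit, was 9.56-fold higher in Ang exosomes and 6.14-fold higher in Con exosomes, and the cell cycle inhibitor gene CDKN1A 2.91-fold and 3.48-fold. CCN2, a matricellular growth factor, was 2.74-fold lower in Ang exosomes and 3.66-fold lower in Con exosomes. The list medians on the log2 scale were 1.41 in Ang and 0.63 in Con for BMP-responsive genes, and -0.18 in Ang and 0.02 in Con for TGF-beta-responsive genes.

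**Figure D5:**
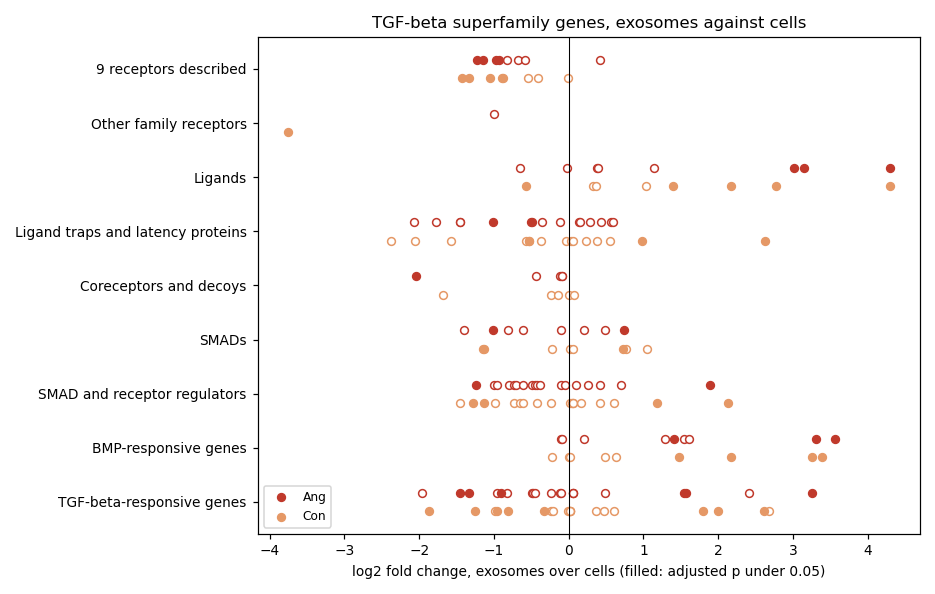
Fitted log2 fold change of exosomes over cells (x axis) for the 9 receptors and the other pathway lists (y axis), 1 point per gene and label, with filled points for an adjusted p under 0.05. Genes with a group at 0 reads, BMPR2 among them, are left out. Called receptors lie on the left, while ligands and BMP-responsive genes have called points of up to 4.30 and 3.56 on the right.

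By the Pearson correlation of log2 CPM over the 12 libraries among 11811 genes, the genes most like BMPR2 were SLC7A2, EIF2AK3, HEATR5A, SCHIP1 and SPOPL (r 0.979 to 0.994). The points share compartment, kit and depth, and r is given as a description. These genes were picked for their likeness to BMPR2 in the same libraries, so their reads in Ang exosomes are not a separate result. EIF2AK3, which encodes the endoplasmic reticulum stress kinase PERK, had 1, 1 and 1 reads in Ang exosomes and 15, 20 and 19 in Con exosomes, against 469, 521 and 565 in Ang cells and 591, 495 and 591 in Con cells. SLC7A2, a cationic amino acid transporter gene, had 0, 0 and 0 reads in Ang exosomes and 4, 4 and 5 in Con exosomes. HEATR5A had 11, 12 and 9 reads in Ang exosomes and 25, 27 and 28 in Con exosomes. Among the other receptors, r with BMPR2 was 0.627 for TGFBR1, 0.599 for TGFBR2, 0.585 for TGFBR3, 0.52 for ACVR2A, 0.485 for ACVR1B, 0.428 for ACVR1, 0.377 for BMPR1A and -0.348 for ENG.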

How the data were processed

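Each library came with a deposited table of raw gene counts, keyed by Ensembl ID, and a table of back-splice junction read counts, per the file headers. For the steps before that, the submitters' processing notes list the build GRCh38 and the programs HISAT2 and StringTie. How reads were assigned to genes and strands, with which annotation, and how circles were called is not given in the sources used here, so overlapping genes may share reads. Gene coordinates, exon lengths and junction sequences were taken from GENCODE release 29, which matched 15362 of 15381 cell genes and 11959 of 11973 exosome genes. No nonzero junction count was below 2. Groups came from the sample titles.

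Counts were tested with edgeR 4.0.16 in R 4.3.3 (quasi-likelihood F test, two-sided, trimmed mean of M-values (TMM) scaling, filterByExpr with a minimum count of 10 and total of 15, robust spread), with Benjamini-Hochberg adjustment over all genes tested and a threshold of 0.05. Ang was compared with Con within 6 libraries, and the other contrasts were fitted to all 12. Those fits shared 1 spread per gene between exosomes and cells, although exosomes were more variable. CPM carry TMM scaling. DESeq2 1.42.0 and other settings were alternatives, and the procedure was tested on simulated data. Libraries of a group differed by more than sampling noise (chi-square per degree of freedom 7.61 to 25.8). The receptors and lists were chosen with earlier results of these data known. All receptors are named, up to 4 passing genes of a list (or the 2 most abundant), and the 5 genes most like BMPR2. MRPS17 was named by the rule for genes at 0 in all libraries of 1 label.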

Additional observations from a re-analysis of the deposited data

How the results depend on the processing

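Depth was a limit, since no receptor had more than 105 reads in any exosome library. Libraries of a group also differed by more than sampling noise, and the part of each was not tested. Over all settings other than leaving out a library, 270 receptor values kept direction and side of the threshold, 11 lost a call, 4 gained one and 7 changed sign. The sign changes were of values near 0. In exosomes, Ang over Con was 0.004 for TGFBR1 and -0.019 for TGFBR2 with a replicate block. ENG in Con exosomes over cells was 0.015 with DESeq2 size factors, 0.016 with DESeq2 and 0.003 fitted to 6 libraries. The difference in change of ACVR2A was 0.001 with DESeq2 size factors and 0.005 with DESeq2. Genes called for Ang against Con in exosomes numbered 1, and 3 with no low count filter, 0 with the replicate block, 16 with DESeq2 and 22 fitted to all 12 libraries. In cells they numbered 0, and 60 with DESeq2. For exosomes against cells they numbered 2571 in Ang and 2412 in Con, and 4127 and 4177 with DESeq2. For the difference in change they numbered 3, and 5 with upper quartile scaling, 1 with the replicate block and 368 with DESeq2. The cause of these shifts was not tested.

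Libraries with the same replicate number in their titles correlated at -0.053 to 0.0264 in their deviations from the group means. Ang and Con cell libraries with different numbers correlated at -0.0408 to 0.0488. No shared effect of the number was thus seen. Nothing states whether libraries of the same number came from the same culture, and these values cannot decide it. With the replicate block, 2074 genes were called for exosomes against cells in Ang and 1956 in Con. The difference in change of BMPR2 had an adjusted p of 0.174 with the block. Receptor calls lost with the block were ACVR1 (adjusted p = 0.0637), TGFBR1 (0.0757) and TGFBR2 (0.0611) in Con and ACVR1B (0.0849) and TGFBR1 (0.0592) in Ang. DESeq2 size factors lost ACVR1B in Ang (0.0518) and TGFBR1 in Con (0.0522). Fits to 6 libraries lost TGFBR2 (0.0831) and TGFBR3 (0.125) in Ang and ACVR1 (0.0734) and TGFBR1 (0.102) in Con.

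Leaving out 1 library at a time, genes called ranged from 1 to 4 (Ang against Con, exosomes), from 0 to 3 (cells, 3 without Con replicate 3), from 1717 to 2611 (exosomes against cells, Ang), from 1565 to 2298 (Con) and from 1 to 17 (difference in change). Receptor log2 fold changes that changed sign ranged as follows. For Ang against Con they ran in exosomes from -0.118 to 0.308 (ENG), from -0.376 to 0.2 (TGFBR1), from -0.251 to 0.312 (TGFBR2) and from -0.474 to 0.576 (TGFBR3), and in cells from -0.893 to 0.06 (BMPR1A) and from -0.008 to 0.039 (TGFBR1). For exosomes against cells they ran from -2.171 to 0.017 (ACVR2A, Ang) and from -0.119 to 0.139 (ENG, Con). For the difference in change they ran from -0.17 to 0.608 (ACVR1B), from -1.624 to 0.719 (ACVR2A), from -0.924 to 0.029 (BMPR1A), from -0.406 to 0.188 (TGFBR1), from -0.316 to 0.246 (TGFBR2) and from -0.548 to 0.511 (TGFBR3).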
